A study of Caenorhabditis elegans with 16 samples.

Results

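Iron storage, metal uptake, zinc handling and metal binding were followed in the worm *Caenorhabditis elegans* through 10 genes: *ftn-1*, *ftn-2*, *smf-1*, *smf-3*, *cdf-2*, *ttm-1*, *hizr-1*, *mtl-1*, *mtl-2* and *cdr-1*. These 10 genes were taken by name from the deposited count table, which lists 47029 genes, because curcumin can bind metal ions. All 10 passed the filter on low counts and were among the 14328 genes tested, and none shares its annotated span with another gene of that table. RNA came from whole worms of strain SS104, harvested on day 3 of adulthood. Every group, the control included, carried the temperature-sensitive mutation glp-4(bn2), was moved from a permissive to a restrictive temperature as larvae so as to be sterile, and was fed *Escherichia coli* OP50. The control group was untreated, the curcumin group received Curcumin Phytosome (a complex of curcumin with phospholipid) at 5 mg/mL on the bacterial lawn, the sulforaphane group received 0.625 mg/mL, and the combination group received both at those doses. Each group had 4 biological replicates, 16 libraries in all. The labels name no carrier for the control, so an effect of the phospholipid and an effect of curcumin cannot be told apart.

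Worms handle metals with proteins that store, import, export or bind them. Ferritin shells hold iron in a safe form, and in *C. elegans* transcription of the ferritin gene *ftn-1* is known to rise with iron and to be held down by the hypoxia factor HIF-1 when iron is scarce, while the iron importer gene *smf-3* is known to go the opposite way. Zinc is stored in lysosome-related gut granules or excreted into the gut lumen, and the nuclear receptor HIZR-1, which binds zinc, turns on the genes for that response. Metallothioneins are small cysteine-rich proteins that bind zinc and cadmium, and much of this activity lies in the intestine.

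Library totals ranged from 14315538 to 19964755 counts. Levels are given in CPM (counts scaled to the library size, with TMM factors) or, where genes are compared with each other, in the authors' FPKM, which also divide by gene length. A gene was called when the edgeR quasi-likelihood test gave a Benjamini-Hochberg adjusted p under 0.05 over all tested genes. Among 10 intestinal marker genes, curcumin lowered 7 and raised 1, the combination lowered 8 and raised 2, and sulforaphane lowered 0 and raised 3. Their summed level was 2453 to 2984 CPM in the control libraries, 3002 to 3626 under curcumin, 2929 to 3273 under sulforaphane and 2915 to 4103 under the combination. Much of that sum under curcumin was *cpr-1*, a cathepsin B-like protease gene, and with it left out, a choice made after its values were seen, the ranges were 2046 to 2467, 944 to 1033, 2628 to 2884 and 1143 to 1420 CPM. No intestinal marker was at 0 in any group. The 10 germline and oocyte markers were all detected, and their sums overlapped, at 341 to 422 CPM in the control and 288 to 355 CPM under the combination. Of these, 1 was called higher, 1 lower and 8 not under the combination. Of the body-wall muscle markers, 5 of 5 were higher under the combination. Over all tested genes, 12.1% were higher and 11% lower under the combination. The part of these shifts in the results on the metal genes was not tested. In whole worms, fewer cells of a type and less RNA per cell cannot be told apart.

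In the untreated control, the levels of the 10 genes per length spanned 282-fold. *ftn-2* stood highest at 649 ± 57.7 FPKM (SD, n = 4), followed by *ftn-1* at 511 ± 46.9 FPKM, *mtl-1* at 270.2 ± 14.8 FPKM and *mtl-2* at 81.1 ± 12.2 FPKM. Both ferritin genes lay above the 98th percentile of the tested genes in the control libraries, at 98.7 and 98.4. The zinc transporter gene *ttm-1* followed at 28.2 ± 1.59 FPKM, then *smf-1* at 22.5 ± 0.671, *hizr-1* at 9.003 ± 1.34, *smf-3* at 7.52 ± 0.627, *cdf-2* at 4.64 ± 0.545 and *cdr-1* at 2.299 ± 0.489 FPKM (SD, n = 4 each). *hizr-1* and *smf-3* were the neighbours in this order whose 4 libraries overlapped.

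Curcumin changed 5 of the 10 genes: *ftn-1* and *cdf-2* rose, and *smf-3*, *ttm-1* and *mtl-2* fell. Over all tested genes 14.6% were called in this comparison, 6.87% higher and 7.71% lower. Sulforaphane changed 2 and raised none of the 10, lowering *ftn-1* and *mtl-1*, beside 6.71% of all genes (4.33% higher and 2.37% lower). The combination changed 4, raising *ftn-1* and lowering *smf-3*, *ttm-1* and *mtl-2*, beside 23.1% of all genes (12.1% higher and 11% lower). These 3 comparisons share the control libraries. The median log2 change of the 10 genes was -0.11 under curcumin, -0.05 under sulforaphane and -0.07 under the combination, beside -0.01, -0.02 and -0.02 over all tested genes. Their median size of change, whatever the direction, was 0.33, 0.09 and 0.29 on the log2 scale, beside 0.16, 0.14 and 0.21 over all tested genes. The 10 genes were chosen with earlier results of these data known, so these comparisons with all genes are descriptive only.

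Set against each other, curcumin and sulforaphane differed in 5 of the 10 genes, beside 18.1% of all genes. *ftn-1*, *cdf-2* and *mtl-1* were higher under curcumin (7.62% of all genes were) and *smf-3* and *ttm-1* lower (10.5%). Adding curcumin to sulforaphane changed 3, beside 18.8% of all genes, with *ftn-1* higher (9.53%) and *smf-3* and *ttm-1* lower (9.25%). Adding sulforaphane to curcumin changed 1, *mtl-1*, which was lower, beside 7.32% of all genes (4.65% higher and 2.67% lower).

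**Figure D1:**
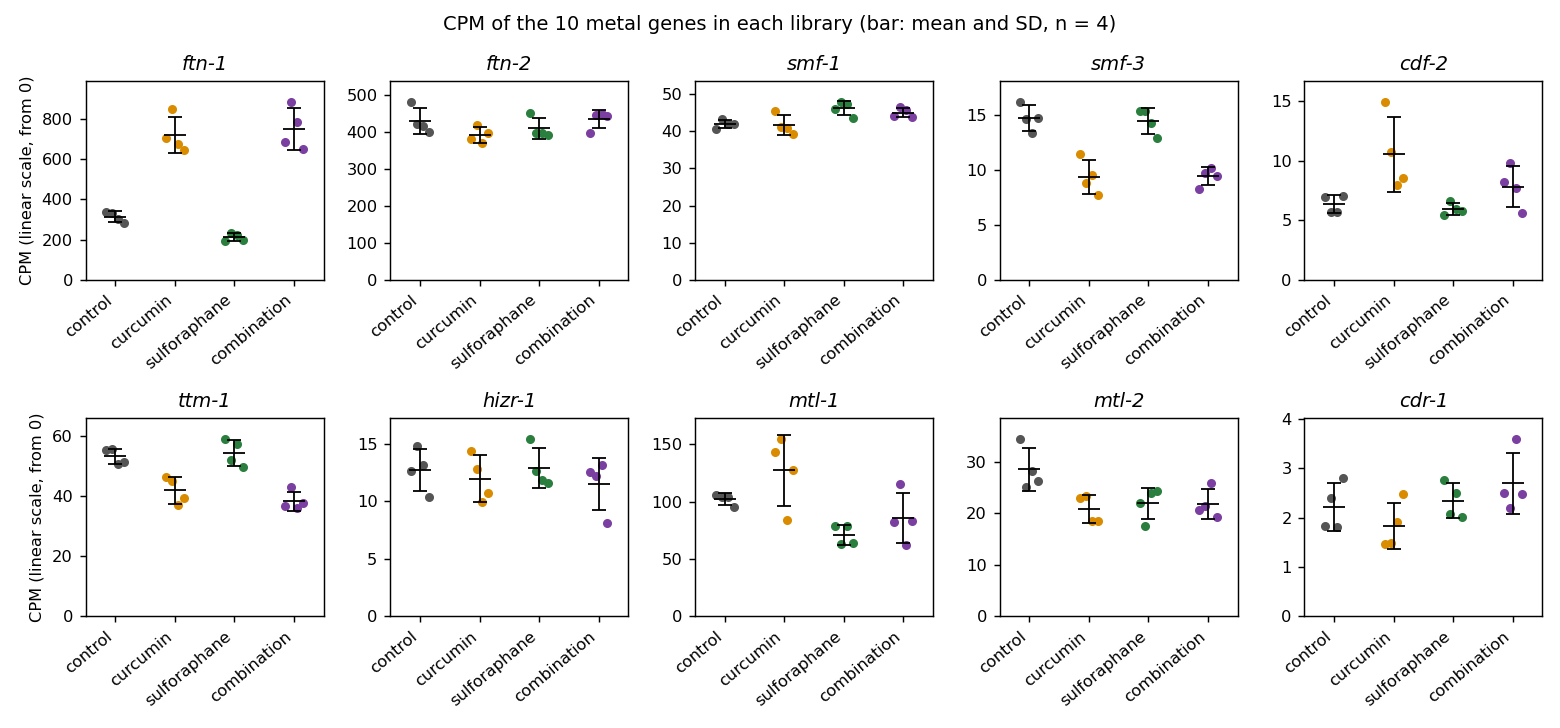
CPM of each of the 10 genes (1 panel per gene, linear axis from 0) in the 16 libraries, with points for the 4 replicates of each group and a bar for the mean and SD. All curcumin and combination libraries of *ftn-1* lie at or above 647 CPM and all control and sulforaphane libraries at or below 336 CPM, while *ftn-2*, *hizr-1* and *cdr-1* overlap between every pair of groups.

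Of the ferritin genes, *ftn-1* changed in all 3 treated groups and *ftn-2* was called in none. *ftn-1* (NCBI Gene 179138, chromosome V, 7546468 to 7547579, minus strand, WBcel235, 3 exons) encodes an iron-storing ferritin subunit. In the control it had 336, 334, 302 and 283 CPM in replicates 1 to 4. With curcumin the values were 705, 852, 676 and 647 CPM, and under the combination 684, 884, 787 and 649 CPM. All 8 libraries that received curcumin stood above all 8 that did not. Groups that did not overlap were found in 16.8% of tested genes for curcumin against control, 22.8% for the combination against control, 21.3% for curcumin against sulforaphane and 20.8% for the combination against sulforaphane. With sulforaphane alone the values were 194, 234, 224 and 198 CPM, all below the lowest control. Sulforaphane and control groups did not overlap, in either direction, in 13.8% of tested genes. Curcumin raised *ftn-1* 2.29-fold, 1.197 on the log2 scale (SE 0.10, 95% interval 0.998 to 1.40, edgeR adjusted p 9.34e-10). The combination raised it 2.39-fold, 1.26 on the log2 scale (SE 0.10, edgeR adjusted p 2.15e-10). Sulforaphane lowered it to 0.678 times the control, -0.56 on the log2 scale (SE 0.10, 95% interval -0.76 to -0.36, edgeR adjusted p 0.000315). These 3 calls were kept under all 25 alternatives.

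The change in *ftn-1* under sulforaphane differed with and without curcumin. On top of curcumin the log2 change was 0.06 (95% interval -0.13 to 0.26, edgeR adjusted p 0.812), whereas without curcumin it was -0.56. Curcumin on top of sulforaphane raised *ftn-1* 3.53-fold, 1.82 on the log2 scale (SE 0.10, edgeR adjusted p 3.56e-13). The interaction, which asks whether the log2 change of the combination departs from the sum of the separate changes, was 0.62 for *ftn-1* (SE 0.13, 95% interval 0.34 to 0.90, edgeR adjusted p 0.0174). *ftn-1* was the only one of the 10 genes called for it, and 0.991% of all tested genes were, 0.377% with a positive and 0.614% with a negative interaction. The interaction kept its sign in 24 of 24 alternatives and lost its call in 6, which were limma on FPKM with a pseudocount of 1 or 0.1 and the fits without control replicate 2, curcumin replicate 3, curcumin replicate 4 or sulforaphane replicate 4, with adjusted p-values of up to 0.0854.

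*ftn-2* (171934, chromosome I, 3680180 to 3680927, minus strand, 3 exons), the second ferritin gene, was called in none of the 6 pairwise comparisons. Its level was 428 ± 35.1 CPM in the control, 391 ± 21.0 under curcumin, 409 ± 28.5 under sulforaphane and 433 ± 24.1 under the combination (SD, n = 4). The log2 change under curcumin was -0.13, with a 95% interval of -0.27 to 0.01, which leaves out a rise of the size seen in *ftn-1*. The ratio of *ftn-1* to *ftn-2* in FPKM went from 0.788 ± 0.0450 in the control to 1.98 ± 0.182 under curcumin and 1.86 ± 0.224 under the combination, and was 0.563 ± 0.0766 under sulforaphane (SD, n = 4). The order of the ferritin genes thus turned over: *ftn-2* was the higher in every control and sulforaphane library, where the ratio reached at most 0.853, and *ftn-1* in every library given curcumin, where it was at least 1.58.

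Of the importer genes, *smf-3* fell in both groups given curcumin and *smf-1* was called nowhere. *smf-3* (177044, chromosome IV, 2618869 to 2625503, plus strand, 11 or 12 exons) encodes an NRAMP-type transporter of iron and manganese. Control libraries had 16.2, 14.7, 13.4 and 14.8 CPM, and curcumin libraries 11.5, 8.81, 9.51 and 7.76 CPM. With sulforaphane *smf-3* had 15.3, 15.4, 14.3 and 12.9 CPM, and under the combination 8.30, 9.74, 10.2 and 9.44 CPM. All 8 libraries given curcumin were below all 8 others. For the single pairs of groups in that split, 16.8% to 22.8% of tested genes did not overlap, in either direction. The share for all those pairs together was not computed. The log2 change was -0.65 under curcumin (SE 0.12, edgeR adjusted p 0.000232) and also -0.65 under the combination (SE 0.12, edgeR adjusted p 0.000157). Sulforaphane left -0.03 on the log2 scale with a 95% interval of -0.26 to 0.21 (edgeR adjusted p 0.932), and the interaction was 0.03 with an interval of -0.32 to 0.37. In the same groups most of the intestinal markers were lower too, as given above, and their part in the fall of *smf-3* was not tested. *smf-3* and *ftn-1* thus moved in opposite directions under curcumin and under the combination, while sulforaphane changed *ftn-1* and not, past the threshold, *smf-3*.

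*smf-1* (180939, chromosome X, 6719669 to 6723066, minus strand), a transporter gene of the same NRAMP family, was called in no comparison. Its groups lay close together, at 42.0 ± 1.198 CPM in the control, 41.7 ± 2.58 under curcumin, 46.3 ± 1.88 under sulforaphane and 45.1 ± 1.33 under the combination (SD, n = 4). Its log2 change under curcumin was -0.01, with a 95% interval of -0.14 to 0.13. All 4 sulforaphane libraries were above all 4 controls, and the log2 change of 0.14 had an edgeR adjusted p of 0.248. In 13.8% of tested genes the sulforaphane and control groups did not overlap, in either direction. All 4 combination libraries were also above all 4 controls, with a log2 change of 0.10 (edgeR adjusted p 0.294). In 22.8% of tested genes the combination and control groups did not overlap, in either direction.

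**Figure D2:**
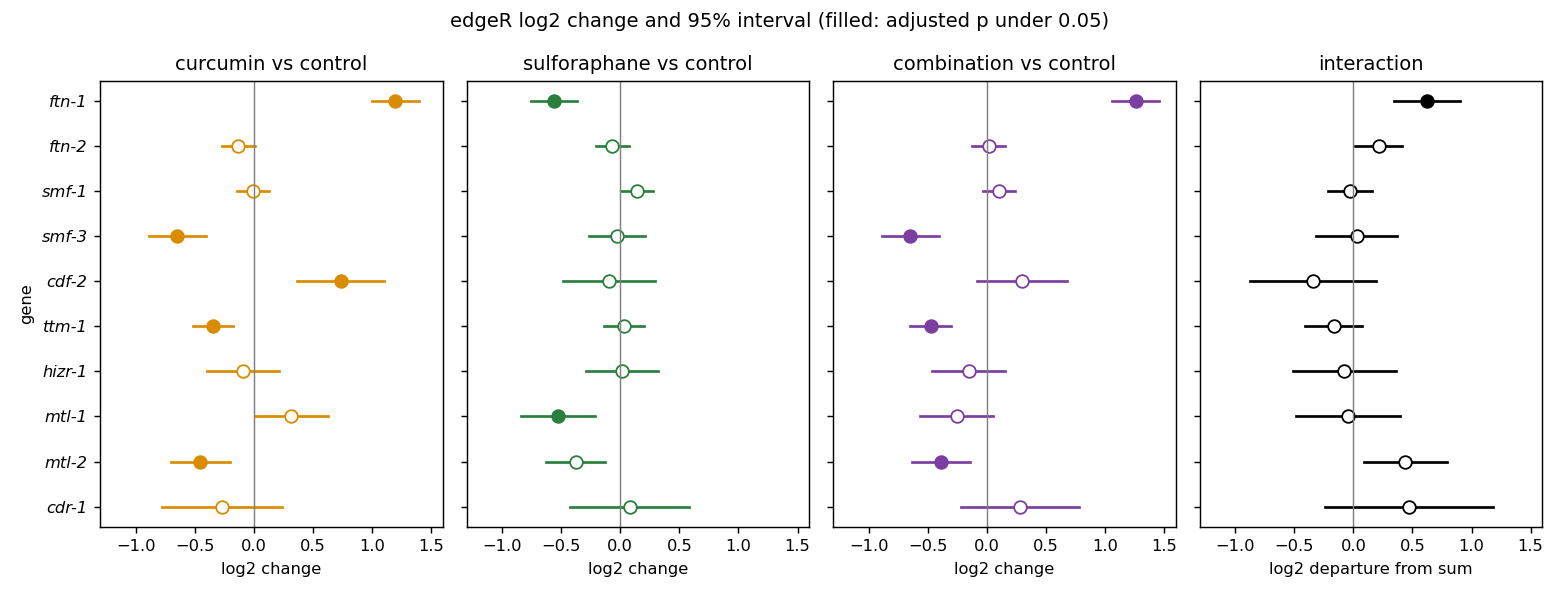
Log2 changes of the 10 genes (points) with 95% intervals (lines) for each treatment against control and for the interaction, from edgeR, with filled points for adjusted p under 0.05. Under curcumin and the combination *ftn-1* is above 1 and *smf-3* is at -0.65, and *ftn-1* carries the only filled point of the interaction, at 0.62.

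Among the zinc genes, curcumin raised the gene of a zinc-storing transporter, *cdf-2*, and lowered that of a zinc exporter, *ttm-1*. *cdf-2* (188574, chromosome X, 12464640 to 12466917, minus strand) encodes the transporter that loads zinc into gut granules. It had 6.95, 5.73, 5.68 and 7.08 CPM in the control and 14.9, 10.8, 7.93 and 8.56 CPM under curcumin. The curcumin libraries spread widely but all lay above the controls, and the log2 change was 0.73 (SE 0.18, edgeR adjusted p 0.00498). A full split of curcumin from control libraries, upward or downward, occurred in 16.8% of tested genes. With the combination the values of 8.24, 9.80, 7.72 and 5.57 CPM overlapped both the control and the curcumin groups, and the log2 change against control was 0.30 (95% interval -0.09 to 0.68, edgeR adjusted p 0.282). Sulforaphane libraries had 5.45 to 6.62 CPM. Curcumin and the combination differed in *cdf-2* by -0.44 on the log2 scale, which missed the threshold (edgeR adjusted p 0.161). That difference was -0.23 without curcumin replicate 1 (edgeR adjusted p 0.503), and it was called when all genes with at least 1 read were tested (-0.46, edgeR adjusted p 0.0391). The interaction for *cdf-2* was -0.34 (95% interval -0.88 to 0.19, edgeR adjusted p 0.786). Against sulforaphane the combination was higher by 0.39 on the log2 scale (95% interval 0.01 to 0.78, edgeR adjusted p 0.161). Without combination replicate 4 that value was 0.53 and was called (edgeR adjusted p 0.0498).

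*ttm-1* (176715, chromosome III, 12952969 to 12966995, minus strand) encodes a zinc exporter of the same cation diffusion family. Control values were 55.4, 55.7, 50.9 and 51.5 CPM, and curcumin values were 46.5, 45.2, 37.3 and 39.3 CPM. Sulforaphane libraries had 59.1, 52.2, 57.3 and 49.7 CPM and combination libraries 36.7, 43.1, 36.0 and 37.7 CPM. The groups given curcumin were again wholly below the other groups. For the single pairs of groups in that split, 16.8% to 22.8% of tested genes did not overlap, in either direction. The log2 change was -0.34 under curcumin (SE 0.08, edgeR adjusted p 0.00409) and -0.48 under the combination (SE 0.08, edgeR adjusted p 8.35e-05). With sulforaphane it was 0.03 (95% interval -0.14 to 0.20, edgeR adjusted p 0.884). In order of level the sulforaphane and control libraries overlapped, and so did those of curcumin and the combination, which differed by -0.13 on the log2 scale (edgeR adjusted p 0.435). As for *smf-3*, the fall went with lower intestinal markers, and their part in it was not tested.

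*hizr-1* (191322, chromosome X, 11318278 to 11321078, plus strand, 13 exons), which encodes the zinc-sensing nuclear receptor, was called nowhere. Its means were 12.8 ± 1.82 CPM in the control, 11.97 ± 2.03 under curcumin, 12.9 ± 1.75 under sulforaphane and 11.5 ± 2.29 under the combination (SD, n = 4). The 95% intervals of its log2 changes against control ran from -0.39 to 0.22 under curcumin, from -0.29 to 0.32 under sulforaphane and from -0.46 to 0.16 under the combination.

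Of the metallothionein genes, *mtl-1* fell under sulforaphane and *mtl-2* fell under curcumin and the combination. *mtl-1* (179060, chromosome V, 6691371 to 6691863, minus strand, 2 exons) had 105.6, 104.3, 104.05 and 95.02 CPM in the control. With curcumin its replicates were 143, 154, 84.0 and 127 CPM, so 3 stood above every control and replicate 3 below every control. Sulforaphane libraries had 78.8, 63.0, 78.7 and 63.6 CPM, all below the controls, and combination libraries 82.1, 115, 61.8 and 83.4 CPM. In 13.8% of tested genes the sulforaphane and control groups did not overlap, in either direction. The fall under sulforaphane was -0.53 on the log2 scale (SE 0.15, edgeR adjusted p 0.0347). That call was lost, with adjusted p-values of up to 0.122, in the fits without any 1 of the 4 control replicates, sulforaphane replicate 2 or sulforaphane replicate 4, in the DESeq2 Wald test and in limma on FPKM. With curcumin the log2 change was 0.32 (95% interval 0.01 to 0.62, edgeR adjusted p 0.193), and it passed without curcumin replicate 3 (0.47, edgeR adjusted p 0.0155) and with all genes of at least 1 read (0.34, edgeR adjusted p 0.000286). Under the combination it was -0.26 (95% interval -0.57 to 0.06, edgeR adjusted p 0.251), and it passed without combination replicate 2 (-0.43, edgeR adjusted p 0.0324) and with all genes of at least 1 read (-0.26, edgeR adjusted p 0.0083).

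Between treatments *mtl-1* was higher under curcumin than under sulforaphane, by 0.84 on the log2 scale (SE 0.15, edgeR adjusted p 0.000179), with all 4 curcumin libraries above all 4 sulforaphane libraries. This call was kept under all 25 alternatives. In 21.3% of tested genes the curcumin and sulforaphane groups did not overlap, in either direction. The combination was below curcumin by -0.57 on the log2 scale (SE 0.15, edgeR adjusted p 0.0169), although their libraries overlapped. That call was lost without curcumin replicate 1, curcumin replicate 2 or combination replicate 3 and on both FPKM scales, with adjusted p-values of up to 0.0771. The interaction for *mtl-1* was -0.05 with a 95% interval of -0.49 to 0.40.

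*mtl-2* (179899, chromosome V, 14018270 to 14018673, minus strand, 2 exons), the other metallothionein gene, had a lower mean in every treated group. Control libraries had 34.5, 25.2, 28.3 and 26.2 CPM. Curcumin libraries had 23.0, 23.5, 18.4 and 18.6 CPM, sulforaphane libraries 22.1, 17.6, 23.9 and 24.3 CPM, and combination libraries 20.7, 21.4, 25.9 and 19.3 CPM. Control replicate 1 was the highest of the 16, and 11 of the 12 treated libraries were below the lowest control, combination replicate 3 being the exception. Over all tested genes, 16.8% had curcumin and control groups that did not overlap, in either direction, and 13.8% had such sulforaphane and control groups. The log2 change was -0.45 under curcumin (SE 0.12, edgeR adjusted p 0.00953), -0.39 under the combination (SE 0.12, edgeR adjusted p 0.0185) and -0.38 under sulforaphane, which missed the threshold (SE 0.12, edgeR adjusted p 0.0584). The sulforaphane change passed without combination replicate 3 (edgeR adjusted p 0.049), with library size alone (0.0418) and with all genes of at least 1 read (0.0131). It also passed with the replicate number as a block (edgeR adjusted p 0.0295). Without control replicate 1 the changes under curcumin and the combination were -0.35 and -0.30 and were no longer called (edgeR adjusted p 0.0588 and 0.0835), and the combination call was also lost without combination replicate 4 (edgeR adjusted p 0.065). No difference between treated groups passed the threshold.

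*cdr-1* (180064, chromosome V, 15921309 to 15922820, plus strand, 6 exons), a gene first known for its strong response to cadmium, had the lowest level of the 10. The libraries held 22 to 53 counts of it each. Its means were 2.21 ± 0.481 CPM in the control, 1.83 ± 0.470 under curcumin, 2.34 ± 0.355 under sulforaphane and 2.69 ± 0.615 under the combination (SD, n = 4). No comparison was called, and the 95% intervals against control were wide, from -0.78 to 0.24 under curcumin and from -0.21 to 0.78 under the combination on the log2 scale.

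Across libraries of the same group, with group means removed, the closest pair among the 10 genes was *ttm-1* and *mtl-1* (Pearson r 0.851 over 16 libraries), followed by *smf-1* and *smf-3* (0.695). *ftn-1* and *ftn-2* had 0.347 and *mtl-1* and *mtl-2* 0.192. These values describe libraries that share their scaling factors. For each of the 6 genes that differed among the 4 groups (edgeR, any difference, adjusted over all tested genes, a rate of 27.3% overall), the genes with the most similar course of log2 CPM over the 16 libraries were looked up among 9207 genes. Closest to *ftn-1* were *ugt-1*, a UDP-glucuronosyltransferase gene (Pearson r 0.978, 18.3 CPM in the control, 47.4 under curcumin, 11.7 under sulforaphane and 40.7 under the combination), and *fat-3*, a fatty acid desaturase gene (r 0.978, 950 CPM in the control, 1413 under curcumin, 764 under sulforaphane and 1407 under the combination). Closest to *smf-3* were F55G11.8 (r 0.951) and the tetraspanin gene *tsp-2* (r 0.950), which had 23.8 CPM in the control and 2.54 under curcumin. For *ttm-1* they were *clec-62* (r 0.949) and ZK1320.2 (r 0.945), for *mtl-1* *ant-1.1* (r 0.928) and *rpl-11.2* (r 0.918), for *cdf-2* F43C9.1 (r 0.909) and F57G12.1 (r 0.896), and for *mtl-2* F54C9.3 (r 0.904) and T20G5.8 (r 0.831).

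A wider list of 61 genes for iron, heme, zinc, copper and cadmium, of which 54 were tested, gave the setting. Of the 44 tested genes outside the 10, curcumin raised 5 and lowered 2, a share of 15.9%, which is close to the 14.6% of all genes. Sulforaphane raised 7 and lowered 1, a share of 18.2% beside 6.71%. The combination raised 17 and lowered 4, a share of 47.7% beside 23.1%. Their median log2 change under the combination was 0.15, beside -0.02 over all tested genes. The wider list too was chosen with earlier results of these data known, so these shares are descriptive only.

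The largest rise of the list was in *cdr-4*, a relative of *cdr-1*. Control libraries had 69.0, 71.6, 67.4 and 57.5 CPM, and sulforaphane libraries 1832, 2047, 1421 and 1422 CPM. With curcumin *cdr-4* had 57.9, 53.1, 51.6 and 51.1 CPM, and under the combination 1185, 1125, 1039 and 923 CPM. Sulforaphane raised it 25.3-fold, 4.66 on the log2 scale (SE 0.12, edgeR adjusted p 1.26e-19), and the combination 16.1-fold, 4.01 on the log2 scale (SE 0.11, edgeR adjusted p 1.08e-18). *cdr-2* of the same family rose under sulforaphane from 165 ± 24.5 to 287 ± 28.5 CPM (log2 change 0.80, edgeR adjusted p 5.32e-07) and fell under curcumin to 126 ± 2.68 CPM (log2 change -0.39, edgeR adjusted p 0.00233). *cdr-6* rose under curcumin from 128 ± 3.99 to 158 ± 10.5 CPM (log2 change 0.31, edgeR adjusted p 0.00174) but had 126 ± 9.01 CPM under the combination, an interaction of -0.45 (SE 0.09, edgeR adjusted p 0.014). Under curcumin alone *cdr-4* had -0.31 on the log2 scale that just missed the threshold (edgeR adjusted p 0.0504) and passed it in 13 of 25 alternatives, among them the fits without control replicate 4, curcumin replicate 1, sulforaphane replicate 2 or 3, or combination replicate 1, 3 or 4. Reads shared between these related genes were not tested.

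**Figure D3:**
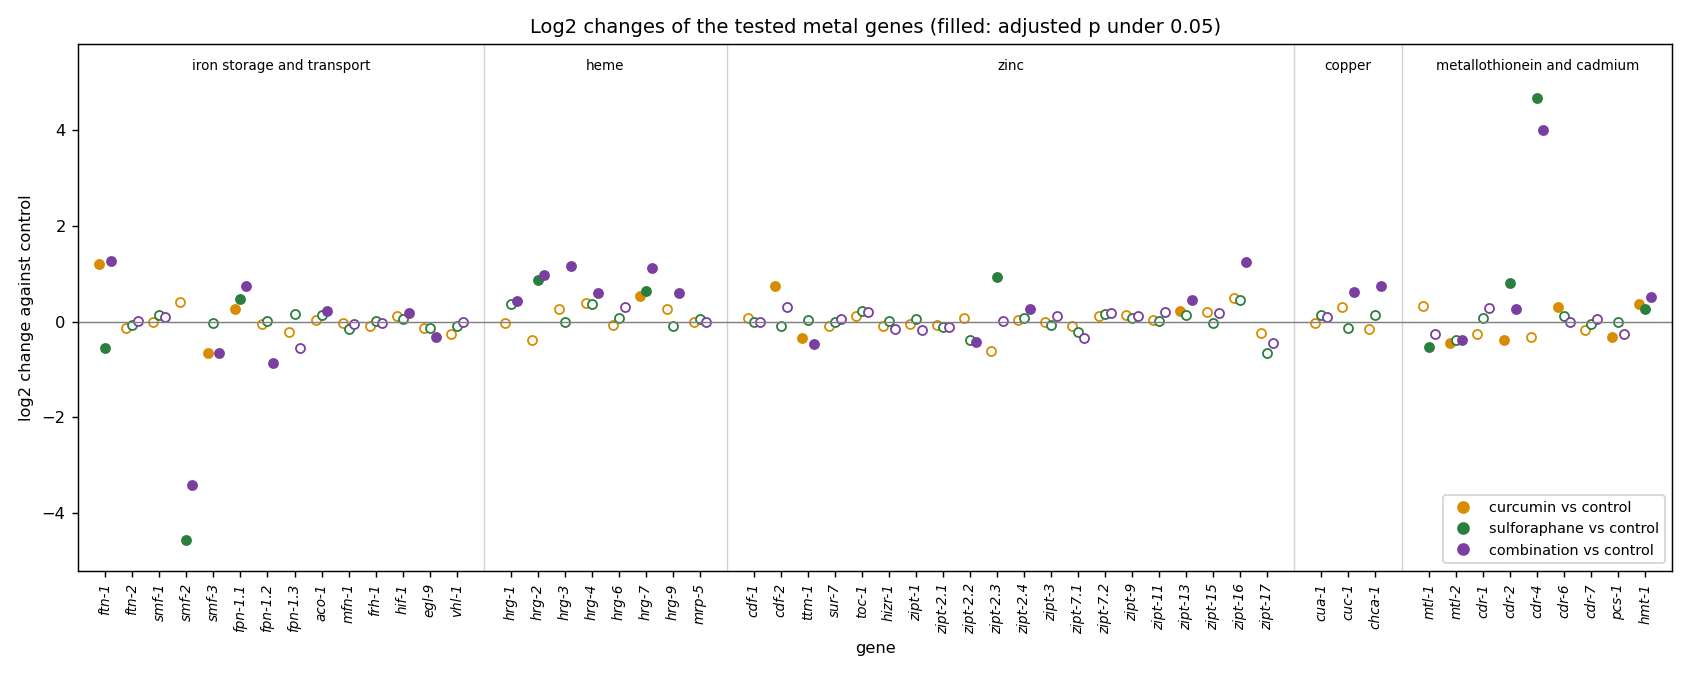
Log2 change against control of each of the 54 tested metal genes (x axis, grouped by metal) under curcumin, sulforaphane and the combination, filled where the edgeR adjusted p was under 0.05. *cdr-4* stands at 4.66 and 4.01 under sulforaphane and the combination, and the lowest points, those of *smf-2*, rest on few counts.

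In the same group, *hmt-1*, which encodes an ABC transporter that protects against cadmium, rose under curcumin (log2 change 0.37, SE 0.08, edgeR adjusted p 0.00119), and *pcs-1*, the phytochelatin synthase gene, fell (log2 change -0.33, SE 0.10, edgeR adjusted p 0.0247). *hmt-1* also rose under the combination (log2 change 0.50, edgeR adjusted p 1.6e-05) and under sulforaphane (0.26, edgeR adjusted p 0.0438). Its sulforaphane call was lost in 9 of 25 alternatives. The *pcs-1* call was lost in 6 of 25 alternatives, among them the fits without control replicate 1, control replicate 3, curcumin replicate 2, curcumin replicate 3 or curcumin replicate 4. Both are uncertain, since *hmt-1* overlaps W09D6.5 on the opposite strand (49610 counts over all libraries against 8489 of its own) and *pcs-1* overlaps F54D5.2 (2456 against 4326), and the strandedness of the counting is not given in the sources used here.

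In the iron group, *fpn-1.1*, a homolog of the iron exporter ferroportin, rose from 67.7 ± 7.44 CPM in the control to 81.3 ± 7.41 under curcumin, 93.2 ± 9.31 under sulforaphane and 114 ± 3.56 under the combination (SD, n = 4). Its log2 changes were 0.27 (edgeR adjusted p 0.0298), 0.46 (edgeR adjusted p 0.000521) and 0.75 (edgeR adjusted p 1.09e-07). The curcumin call was lost in 5 of 25 alternatives, among them the fits without control replicate 3, control replicate 4, curcumin replicate 1 or curcumin replicate 2. *fpn-1.1* overlaps *npp-13* on the opposite strand (8153 counts against 22454). *fpn-1.2*, another ferroportin homolog, had 10.6 ± 0.939 CPM in the control, 10.2 ± 0.616 under curcumin, 10.7 ± 1.19 under sulforaphane and 5.76 ± 0.638 under the combination. It fell under the combination (log2 change -0.87, SE 0.12, edgeR adjusted p 4.65e-06), and its interaction was -0.84 (SE 0.17, edgeR adjusted p 0.00989).

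*smf-2*, the third NRAMP gene, had few and uneven counts. Control libraries held 17, 65, 8 and 64 counts, curcumin libraries 187, 19, 30 and 4, sulforaphane libraries 1, 0, 3 and 2, and combination libraries 2, 3, 2 and 7. The sulforaphane and combination libraries were all below the lowest control, with edgeR adjusted p-values of 0.00613 and 0.0061, and limma on FPKM with a pseudocount of 1 called neither (adjusted p 0.131 and 0.088). Groups did not overlap, in either direction, in 13.8% (sulforaphane against control) and 22.8% (combination against control) of tested genes. *smf-2* overlaps *nas-11* on the opposite strand, which had 68805 counts against 414, so these values are uncertain.

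Of the 8 tested heme genes, 6 were higher and 0 lower under the combination, beside 12.1% of all genes higher, and their median log2 change was 0.60. They were *hrg-1*, *hrg-2*, *hrg-3*, *hrg-4*, *hrg-7* and *hrg-9*. *hrg-1* overlaps *mop-25.1* (32730 counts against 11804) and *hrg-3* overlaps F58E6.11 (885 against 233), both on the opposite strand, so these are uncertain. *hrg-3* was also low, at 0.674 ± 0.164 CPM in the control and 1.52 ± 0.627 CPM under the combination (SD, n = 4). *hrg-7*, which encodes a secreted protease-like signal of heme status, went from 106 ± 6.08 CPM in the control to 155 ± 12.97 under curcumin, 165 ± 13.3 under sulforaphane and 230.2 ± 8.49 under the combination (SD, n = 4). Its log2 changes were 0.54, 0.63 and 1.11 (edgeR adjusted p 2.62e-06, 7.01e-07 and 5.99e-12). It overlaps C15C8.7 on the opposite strand, which had 4644 counts against 41356. *hrg-2* rose from 3.11 ± 0.970 CPM to 5.70 ± 0.991 under sulforaphane (log2 change 0.87, edgeR adjusted p 0.00685) and to 6.14 ± 0.959 under the combination (log2 change 0.98, edgeR adjusted p 0.000637).

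In the zinc group, 3 of 20 tested genes were called under curcumin, 1 under sulforaphane and 5 under the combination, beside 14.6%, 6.71% and 23.1% of all genes. These 20 include *cdf-2*, *ttm-1* and *hizr-1*, described above. *cdf-2* and *ttm-1* were among the genes called under curcumin, and *ttm-1* was among those called under the combination. *zipt-2.3*, a ZIP-family zinc transporter gene, rose under sulforaphane from 2.58 ± 0.664 to 4.95 ± 0.603 CPM (log2 change 0.94, edgeR adjusted p 0.00638) and had 2.59 ± 0.545 CPM under the combination. *zipt-16*, another ZIP-family gene, rose under the combination from 2.299 ± 0.346 to 5.45 ± 0.552 CPM (log2 change 1.24, edgeR adjusted p 6.67e-05). *zipt-2.2* fell under the combination from 8.04 ± 0.608 to 5.95 ± 0.446 CPM (log2 change -0.44, edgeR adjusted p 0.0395), a call lost in 7 of 25 alternatives, which were limma on FPKM with a pseudocount of 1 and the fits without control replicate 1, 2 or 3 or combination replicate 1, 2 or 4. Of the copper genes, *chca-1*, which encodes an intestinal copper transporter, had 7.60 ± 0.952 CPM in the control, 6.82 ± 0.0860 under curcumin, 8.38 ± 0.864 under sulforaphane and 12.8 ± 0.787 under the combination, an interaction of 0.76 (SE 0.16, edgeR adjusted p 0.0162) that was no longer called without control replicate 1 (edgeR adjusted p 0.0569).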

How the data were processed

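The authors deposited raw read counts per gene and FPKM values, 1 column per library. Per the submitters' processing notes, HISAT2 2.0.5, StringTie 1.3.3b, featureCounts 1.5.0-p3, DESeq2 1.20.0 and build WBcel235 were used, with no role or order given. The deposited FPKM were checked to equal count over gene length over a library depth of 0.950 to 1.07 times the total count. Coordinates are as deposited and, for the 10 genes, equal those of the RefSeq and Ensembl annotations of WBcel235, the latter giving the exon numbers. The strandedness of the counting is not given in the sources used here, and the design text calls the replicates independent.

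Counts were analysed in edgeR 4.0.16 (R 4.3.3): filterByExpr (minimum count 10, minimum total 15), TMM factors, 1 mean per group over all 16 libraries, two-sided quasi-likelihood F tests for 6 pairs and the interaction, adjusted over 14328 genes. The fit was tested on simulated data. The SE is the log2 change divided by the square root of F. Alternatives included DESeq2 1.42.0, limma 3.58.1 on log2(FPKM + 1 or 0.1) and leaving out each library.

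The 10 genes, the wider list and the markers were chosen with earlier results of these data known. Of the list's 61 genes, 57 matched by name, 1 by RefSeq gene ID and 3 not. The text names, per comparison with control and for the interaction, up to 6 called list genes in each direction by size of change with a mean of at least 1 CPM, and the 2 genes most like each of the 10 that differed among groups, with a mean of at least 5 CPM. The heme genes called under the combination are also listed, whatever their size of change or level.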

Additional observations from a re-analysis of the deposited data

Results flagged for a closer look

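The effect of curcumin differed with and without sulforaphane, by the interaction test in edgeR, for *ftn-1* (0.62 on the log2 scale, adjusted p 0.0174), *chca-1* (0.76, adjusted p 0.0162), *fpn-1.2* (-0.84, adjusted p 0.00989) and *cdr-6* (-0.45, adjusted p 0.014).

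In 5 of 96 sets of 4 replicates, 1 library stood apart from the others by more than Dixon's 95% criterion, given as the gap over the range. Chance flags about 1 set in 20. *ftn-2* had 451 CPM in sulforaphane replicate 1 beside 391 to 396 in the others (0.903) and 397 CPM in combination replicate 1 beside 441 to 449 (0.848). *mtl-1* had 95.02 CPM in control replicate 4 beside 104.05 to 105.6 (0.856). *cdr-6* had 134 CPM in control replicate 2 beside 126 in each of the others (0.971), and *zipt-2.2* had 7.14 CPM in control replicate 4 beside 8.26 to 8.47 (0.844).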

How the results depend on the processing

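Among the 10 genes and the list genes given with a log2 change of their own, no called change reversed under any alternative run (*hrg-1*, *hrg-3*, *hrg-4* and *hrg-9* were not included), and scaling moved the median log2 change of all genes by less than 0.1. Of the 10 genes, those called under sulforaphane numbered 2, and 1 by the DESeq2 Wald test and by limma on FPKM at either pseudocount. Between the combination and curcumin the number was 1, rising to 2 (with *cdf-2*) when all genes of at least 1 read were tested and falling to 0 on both FPKM scales, where the interaction also went from 1 to 0. *mtl-2* gained a call under sulforaphane with library size alone (edgeR adjusted p 0.0418) and with at least 1 read (0.0131). With at least 1 read *mtl-1* gained calls under curcumin, under the combination and between combination and sulforaphane (edgeR adjusted p 0.000286, 0.0083 and 0.0215). Over all genes the interaction count of 142 became 352 with at least 1 read, 224 by DESeq2 and 318 with the replicate block. The cause of these shifts was not tested.

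Same-numbered libraries of different groups had residual correlations averaging 0.109, with 12 of 24 pairs over 0.1, while different-numbered pairs averaged -0.0364, with 2 of 72 over 0.1, and 14 of 16 libraries correlated best with their own number. This is a hint from the data that the numbers were shared. The labels do not say so, and the rule used asked for every same-numbered pair to exceed 0.1, so the reported tests have no block. With the replicate block the sulforaphane count over all genes went from 961 to 1469, and *mtl-2* under sulforaphane gained a call (edgeR adjusted p 0.0295), the only change among the 10 genes.

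Leaving out 1 library at a time gave 4 to 6 of the 10 genes called under curcumin, 1 to 3 under sulforaphane, 3 to 5 under the combination, 0 to 1 between combination and curcumin, 3 to 4 between combination and sulforaphane, 5 between curcumin and sulforaphane and 0 to 1 for the interaction. Depth limits *cdr-1* most, at 22 to 53 counts per library.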
